A study of Mus musculus with 12 samples.

Results

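The genes described are 52 members of the Wnt signalling system in newborn mouse liver and lung. They are 13 Wnt ligands, 9 Frizzled receptors, 5 co-receptors, 5 R-spondins and R-spondin receptors, 5 secreted inhibitors, 4 genes of beta-catenin and its nuclear partners, 4 feedback targets and 7 planar cell polarity genes. They were chosen by symbol, and all 52 were found among the 24421 rows of each count table. Polyadenylated RNA was sequenced from the liver and the lung of 3 *Man1a2*+/+ (WT) and 3 *Man1a2*-/- (null) mice, which gives 4 groups of 3 libraries and 12 libraries in all. The mice were newborn pups of heterozygous parents. The null allele lacks exon 2 of *Man1a2*, which encodes an alpha-mannosidase that trims N-linked sugars in the Golgi, in every cell of the body, and the WT mice carry no engineered allele. The allele is Man1a2tm1.1Ahe, and the genetic background and sex of the mice were not given in the sources used here. Both tissues were taken from the same 3 mice of each genotype, so liver and lung are not independent samples, whereas WT and null are different animals.

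Wnt ligands are secreted lipid-bearing proteins that bind Frizzled receptors. With the co-receptors Lrp5 and Lrp6 they stabilise beta-catenin, which enters the nucleus and drives targets with Tcf and Lef factors, and with Ror1, Ror2 or Ryk they act without beta-catenin. R-spondins bind Lgr receptors and keep Frizzled receptors on the cell surface by holding back the ubiquitin ligases Znrf3 and Rnf43, which are themselves targets of the pathway. Planar cell polarity genes orient cells within a sheet, and the Wnt system is known for zoning metabolism across the liver lobule and for branching and alveolar growth in the lung.

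Libraries held 26759463 to 42914295 counts. Levels are CPM, each gene's count relative to the total of its library, on totals scaled by TMM, a factor computed over all 12 libraries, and 3 counts correspond to 0.0542 to 0.127 CPM. A gene was called when edgeR's quasi-likelihood test gave a Benjamini-Hochberg adjusted p under 0.05 over all genes tested and the change was at least 1.2-fold. *Man1a2* itself read 87.7, 53.3 and 68.7 CPM in the WT livers and 50.6, 49.1 and 50.4 CPM in the null livers. In lung it read 105, 76.3 and 109 CPM in WT and 41.5, 50.0 and 51.6 CPM in null. The groups did not overlap in either tissue, but gene counts also take in reads outside exon 2 and so check the deletion only in part. The library labelled null lung 1 went against its tissue label in its alveolar and heart markers. The alveolar type 2 cell marker *Sftpc* read 25.8 CPM there and 12200 to 17500 CPM in the other 5 lungs, the alveolar type 1 marker *Ager* 43.0 against 990 to 1380 CPM, and the heart gene *Nppa* 5800 against 0.825 to 3.25 CPM. Its summed airway markers, at 2630 CPM, lay within the 2370 to 4330 CPM of the other lungs. Among them *Scgb1a1* was low, with 6635 counts against 73472 to 107710, and *Krt5* was high, with 4115 counts against 1 to 10. *Scgb3a2*, with 82811 counts, made up most of the sum in that library. Null liver 1 held skeletal muscle RNA, with *Acta1* at 3300 CPM against 1.26 to 2.33 CPM in the other livers, while its summed hepatocyte markers, at 159000 CPM, lay within the 131000 to 203000 CPM of the others. Lung results are therefore given with and without null lung 1, and liver results with and without null liver 1. In whole tissue, fewer cells of a type and less RNA per cell cannot be told apart.

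Stretches just upstream of 4 genes are shown because *Wnt3a* and *Wnt7a* fell together in null lung, *Lgr4* was called higher in null liver and, without null lung 1, in null lung, and *Wnt11* is a ligand with a TCF/LEF match. They come from RefSeq (GRCm38.p6, the build of the authors' alignment), which gave windows for 35 of the 52 members, and bases of the gene's own annotated exons were left off. Before that trimming, the window of *Wnt7a* touched an annotated exon of another gene, *Gm30437*. Capitals mark matches, on either strand and with overlaps kept, to CTTTGAT, a motif of TCF and LEF factors, to CCAAT, to the GC box with the letters GGGCGG and to the TATA box with the letters TATAAA.
*Wnt3a*, chr11:59290753-59291001, minus strand: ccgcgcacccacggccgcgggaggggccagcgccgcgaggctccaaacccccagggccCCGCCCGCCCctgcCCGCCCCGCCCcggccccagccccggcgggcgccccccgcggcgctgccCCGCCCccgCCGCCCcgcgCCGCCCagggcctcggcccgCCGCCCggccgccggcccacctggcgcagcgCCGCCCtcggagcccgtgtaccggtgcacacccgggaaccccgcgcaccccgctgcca
*Wnt7a*, chr6:91411364-91411603, minus strand: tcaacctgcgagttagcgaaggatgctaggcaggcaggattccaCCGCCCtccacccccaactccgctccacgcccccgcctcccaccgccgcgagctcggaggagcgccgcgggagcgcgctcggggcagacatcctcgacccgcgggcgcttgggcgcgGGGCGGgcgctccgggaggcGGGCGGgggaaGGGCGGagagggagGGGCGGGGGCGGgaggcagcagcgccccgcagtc
*Lgr4*, chr2:109917397-109917646, plus strand: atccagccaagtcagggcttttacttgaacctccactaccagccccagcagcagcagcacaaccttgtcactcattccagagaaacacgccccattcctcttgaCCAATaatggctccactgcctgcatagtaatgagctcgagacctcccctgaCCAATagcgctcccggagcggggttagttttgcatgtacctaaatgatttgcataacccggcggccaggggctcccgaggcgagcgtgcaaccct
*Wnt11*, chr7:98834862-98835111, plus strand: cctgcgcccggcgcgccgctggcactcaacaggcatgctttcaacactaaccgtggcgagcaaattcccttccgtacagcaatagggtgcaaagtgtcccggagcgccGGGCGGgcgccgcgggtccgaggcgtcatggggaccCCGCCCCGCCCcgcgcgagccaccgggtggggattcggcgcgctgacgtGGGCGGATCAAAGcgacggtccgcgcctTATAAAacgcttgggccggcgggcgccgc

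*Wnt3a* and *Wnt7a* held 9 and 6 GC-box matches, some of them adjoining or overlapping, and none of the other 3 motifs. *Lgr4* held 2 CCAAT boxes and no GC box. In *Wnt11* the TCF/LEF match directly follows a GC box, and a TATA box lies nearer the start. The GC box was found in 73.5% of the 49 windows of members and in 32.7% of all 32851 windows of 250 bases. The TCF/LEF letters were found for 3 members, *Wnt11*, *Wnt5b* and *Prickle2*, which is 6.12% of member windows against 3.21% of all windows. The CCAAT box stood in 26.5% of member windows and 33.8% of all, and the TATA box in 14.3% and 12.4%. These are descriptions of letters, not binding sites.

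The comparison of WT liver with WT lung asks where each part of the system is expressed at birth. Of 50 members tested, 48 were called, 42 higher in lung and 6 higher in liver. Among all 15635 genes tested 77.0% were called, 39.8% higher and 37.2% lower in lung. The groups of libraries did not overlap for 49 of the 50 members, against 81.2% of all genes. The median difference between lung and liver was 2.45 on the log2 scale over the members and 0.04 over all genes, and it was 2.45 also with *Wnt7a* and *Fzd10*, which had no reads in WT liver, set to the lower bounds given below. *Wnt9b* and the co-receptor *Lrp6* were tested and not called, at log2 differences of 0.60 and 0.12. *Wnt10a* and *Sfrp5* were too low to test.

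**Figure D1:**
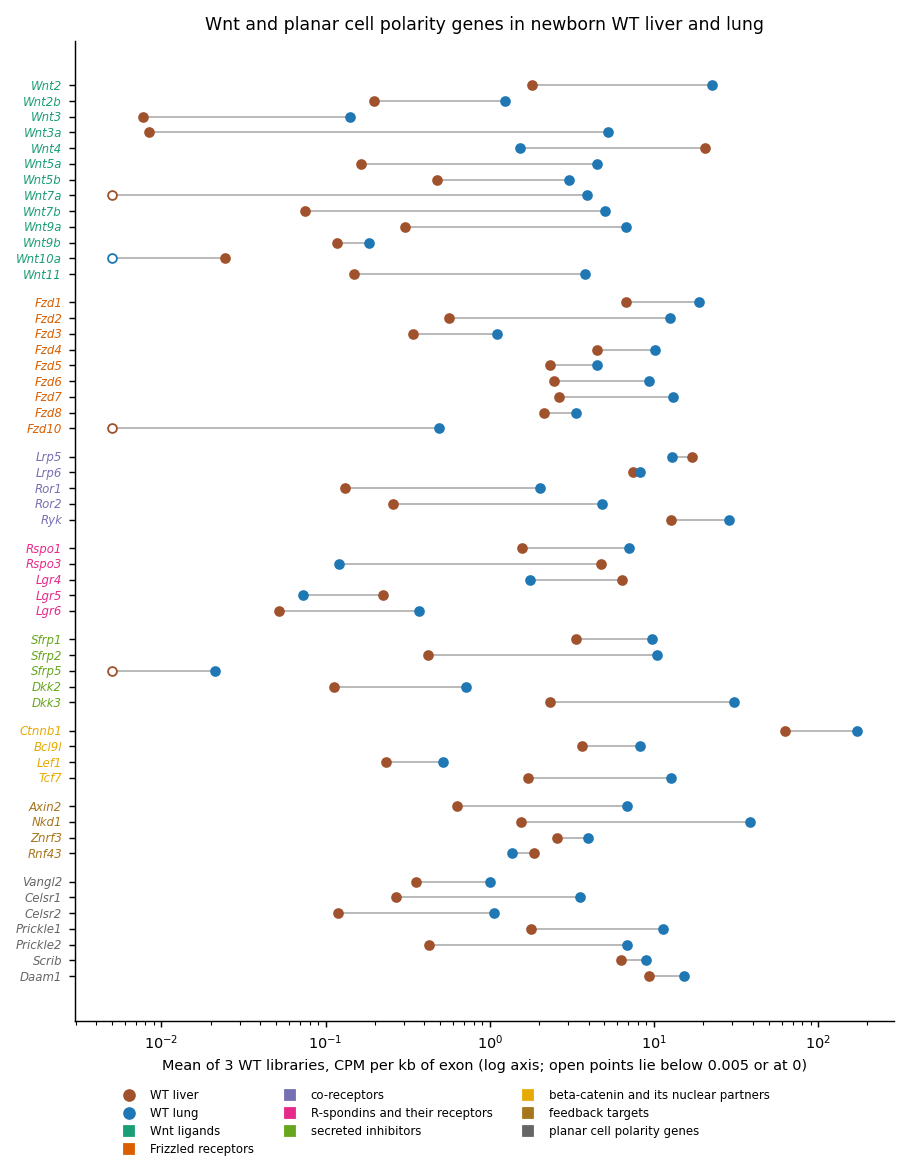
Mean level of each gene in 3 WT livers (brown) and 3 WT lungs (blue) in CPM per kilobase of exon, on a log axis, grouped by role. Blue lies to the right of brown for most genes, and the brown point lies to the right for *Wnt4*, *Lrp5*, *Rspo3*, *Lgr4*, *Lgr5* and *Rnf43*, each called higher in liver, and for *Wnt10a*, which was not tested.

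Among the ligands, 10 were higher in WT lung and only *Wnt4* was higher in WT liver. *Wnt7a* had no reads in any WT liver and read 13.0, 11.2 and 13.0 CPM in the WT lungs, so it was at least 113-fold higher in lung, taking 3 counts per liver library as the floor. *Wnt3a* had 2 reads in the 3 WT livers together and 15.3, 15.1 and 13.1 CPM in the WT lungs. *Wnt7b* read 0.497, 0.324 and 0.274 CPM in liver and 26.3, 22 and 25.3 CPM in lung, a log2 difference of 6.03 (SE 0.20, adjusted p = 1.26e-08). These 3 ligands were thus near the detection floor in liver and above 11 CPM in every WT lung. *Wnt4* took the other direction, with 111, 62.5 and 85.5 CPM in liver and 6.05, 6.57 and 6.52 CPM in lung (log2 difference -3.79, SE 0.20, adjusted p = 1.57e-07). Per kilobase of exon, *Wnt4* was the highest ligand in WT liver at 20.6 ± 5.81 CPM per kb (SD, n = 3), followed by *Wnt2* at 1.81 ± 0.249. In WT lung the order was led by *Wnt2* at 22.7 ± 1.57 CPM per kb, with *Wnt9a* at 6.72 ± 1.34, *Wnt3a* at 5.25 ± 0.442, *Wnt7b* at 5.02 ± 0.462 and *Wnt5a* at 4.50 ± 0.285. *Wnt3a* and *Wnt7b* did not differ beyond their spread.

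All 9 Frizzled receptors were higher in WT lung. *Fzd2* read 1.92, 2.27 and 2.02 CPM in liver and 46.3, 46.3 and 45.0 CPM in lung (log2 difference 4.44, SE 0.11, adjusted p = 3.83e-09). *Fzd7* read 11.5, 12.6 and 11.9 CPM in liver and 65.0, 55.4 and 57.3 CPM in lung (log2 difference 2.27, SE 0.10, adjusted p = 4.74e-08). *Fzd10* had no reads in WT liver and read 1.5, 1.78 and 1.52 CPM in lung, at least 14.5-fold higher. Per kilobase, *Fzd1* led in both tissues, at 6.74 ± 0.113 CPM per kb in liver and 18.9 ± 1.77 in lung (SD, n = 3), with *Fzd4* next in liver at 4.49 ± 0.271 and *Fzd7* and *Fzd2* next in lung at 13.1 ± 1.12 and 12.5 ± 0.200, which did not differ beyond their spread.

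The co-receptors divided by branch. *Lrp5* was slightly higher in WT liver (175, 157 and 168 against 125, 130 and 123 CPM, log2 difference -0.43, SE 0.09, adjusted p = 0.00177) and *Lrp6* was not called. The alternative receptors *Ror1*, *Ror2* and *Ryk* were all higher in lung. *Ror2* read 0.780, 0.973 and 1.54 CPM in liver and 22.7, 18.9 and 20.3 CPM in lung (log2 difference 4.19, SE 0.22, adjusted p = 1.72e-07). *Ror1* differed by 3.92 (SE 0.26) and *Ryk* by 1.15 (SE 0.09) on the log2 scale. With library totals in place of TMM, which moved the median of all genes to 0.83, *Lrp5* turned to higher in lung.

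The R-spondin branch was the role with the most members higher in liver, 3 of 5. *Rspo3*, a secreted enhancer of Wnt signalling, read 14.0, 15.7 and 14.7 CPM in WT liver and 0.542, 0.239 and 0.336 CPM in WT lung, a log2 difference of -5.28 (SE 0.24, adjusted p = 6.49e-08). The receptor genes *Lgr4* (log2 difference -1.90, SE 0.12) and *Lgr5* (-1.65, SE 0.26) were also higher in liver. *Lgr6*, at 0.390, 0.608 and 0.0686 CPM in liver and 2.42, 2.93 and 2.31 CPM in lung, differed by 2.84 (SE 0.46, adjusted p = 0.000326). *Rspo1* was higher in lung by 2.14 (SE 0.24), with 2.87, 3.08 and 3.16 CPM in liver and 18.9, 11.5 and 10.6 CPM in lung. The groups overlapped for neither gene. *Rspo2* and *Rspo4*, R-spondin genes on the list of other pathway genes, had 2 reads and 1 read in the 3 WT livers together and read 3.14, 3.03 and 4.23 CPM and 3.88, 3.83 and 2.08 CPM in WT lung, so of the 4 R-spondins only *Rspo3* was higher in liver. *Rspo3* shares 13.1% of its exon length with an antisense gene, and the strand setting of the authors' counting was not given in the sources used here.

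Secreted inhibitors, beta-catenin partners and polarity genes were all higher in WT lung where tested. *Sfrp2*, a Wnt-binding decoy, read 0.532, 1.26 and 0.926 CPM in liver and 30.0, 14.5 and 23.1 CPM in lung (log2 difference 4.62, SE 0.35). It shares 16.1% of its exon length with an antisense gene. *Dkk3* read 6.77, 7.62 and 9.12 CPM in liver and 106, 106 and 97.7 CPM in lung (3.69, SE 0.12), and *Dkk2*, which blocks the Lrp co-receptors, differed by 2.64 (SE 0.50). Of the nuclear partners, *Tcf7* read 4.15, 5.19 and 4.18 CPM in liver and 37.8, 29.3 and 33.4 CPM in lung (2.87, SE 0.14), *Ctnnb1*, which encodes beta-catenin, 329, 324 and 324 against 849, 910 and 931 CPM (1.43, SE 0.13), and *Bcl9l*, a coactivator of beta-catenin, differed by 1.14 (SE 0.16). Of the feedback targets, *Nkd1*, an inhibitor of Dishevelled, read 6.31, 6.85 and 8.20 CPM in liver and 183, 159 and 185 CPM in lung (4.59, SE 0.13, adjusted p = 5.91e-09). *Axin2*, a scaffold of the beta-catenin destruction complex, differed by 3.40 (SE 0.23) and *Znrf3* by 0.60 (SE 0.10), whereas *Rnf43* was slightly higher in liver (-0.48, SE 0.13, adjusted p = 0.00585) and turned to higher in lung with library totals in place of TMM. Of the 7 polarity genes, *Prickle2* read 3.55, 3.85 and 3.57 CPM in liver and 57.2, 62.1 and 58.0 CPM in lung (3.98, SE 0.10, adjusted p = 3.83e-09). The large cadherins *Celsr1* and *Celsr2* differed by 3.68 (SE 0.17) and 3.11 (SE 0.20). *Scrib*, a scaffold of epithelial polarity, showed the smallest difference of the role, 0.47 (SE 0.08), and turned to higher in liver with GC and length correction.

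In the null animals the order of the tissues could be read only in part. With all 6 null libraries 33 of 49 members were called, each of them higher in lung, against 45.8% of all genes (24.2% higher and 21.6% lower in lung). Without null lung 1 it was 42 of 50, 38 higher and 4 lower in lung, against 60.7% of all genes (31.2% and 29.6%). All 42 were among the 48 called in WT. The sign without that library was that of WT for 47 of 50 members. The exceptions were *Lgr5*, *Dkk2* and *Rnf43*.

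The comparison of null with WT liver asks which parts of the system differ when *Man1a2* is absent. Of 44 members tested, 9 were called, 5 higher and 4 lower in null. Among all 14343 genes tested 26.9% were called, 13.5% higher and 13.4% lower, beside 20.5% of the members. The receptors *Fzd5* and *Lgr4*, the inhibitor family gene *Dkk3* and the polarity genes *Vangl2* and *Prickle1* rose. The receptor *Fzd1*, the coactivator gene *Bcl9l*, the feedback target *Rnf43* and *Daam1*, which links Dishevelled to actin assembly, fell. No ligand and no co-receptor was called by edgeR. DESeq2 called 12 members, the same 9 together with the ligand gene *Wnt11*, the co-receptor gene *Ror1* and *Ctnnb1*, beside 4530 of 15181 genes. Without null liver 1, 8 of 46 members were called, 3 higher and 5 lower, against 23.8% of all genes (11.9% in each direction), with *Dkk3* and *Vangl2* lost and *Ctnnb1* gained.

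**Figure D2:**
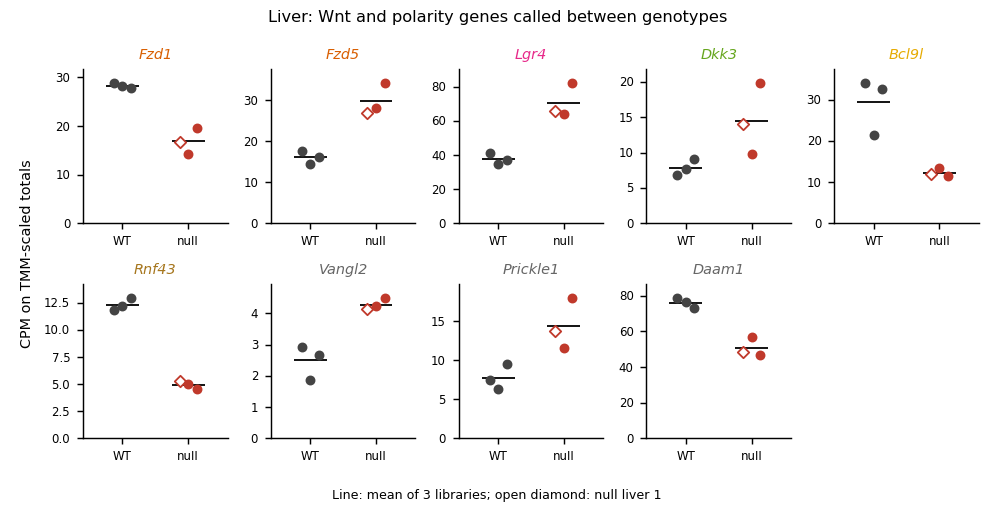
CPM on TMM-scaled totals in each WT (grey) and null (red) liver for the 9 genes called between genotypes, with a line at the mean of 3 libraries, null liver 1 as an open diamond and panel titles coloured by role. In every panel the 3 null libraries lie on one side of the 3 WT libraries, null liver 1 included.

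*Rnf43*, the ubiquitin ligase that removes Frizzled receptors (chr11:87662722-87735539, plus strand, in 11 exon blocks), read 11.8, 12.2 and 12.9 CPM in WT liver and 5.34, 5.02 and 4.52 CPM in null liver. The groups lay far apart against their spread, with a log2 fold change of -1.30 (SE 0.15, adjusted p = 0.00292 by edgeR). Its partner *Znrf3* read 22.1, 19.0 and 19.8 CPM in WT and 14.8, 15.2 and 17.3 CPM in null, without overlap but not called (log2 fold change -0.36, adjusted p = 0.0653). All 4 feedback targets had a fold change below 0. *Nkd1* was at -0.46 (adjusted p = 0.116), and *Axin2*, whose groups overlapped, at -0.09 (SE 0.42).

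The R-spondin receptor *Lgr4*, which acts on those ligases, read 41.0, 34.8 and 37.0 CPM in WT and 65.5, 64.3 and 82.0 CPM in null liver (log2 fold change 0.92, SE 0.13, adjusted p = 0.00395). Every null liver was above every WT liver. The other members tested in the branch had changes below 0 that were not called, with *Rspo3* at 14.0, 15.7 and 14.7 CPM in WT and 7.37, 11.9 and 12.5 CPM in null (-0.48, adjusted p = 0.106) and *Lgr5* at -0.68 (adjusted p = 0.146).

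Of the Frizzled genes, *Fzd5* read 17.6, 14.4 and 16.1 CPM in WT and 26.9, 28.1 and 34.1 CPM in null liver (log2 fold change 0.90, SE 0.13, adjusted p = 0.00497). It shares 17.8% of its exon length with an antisense gene. *Fzd1*, the most abundant Frizzled per length, went down from 28.8, 28.3 and 27.8 CPM to 16.8, 14.2 and 19.6 CPM (-0.74, SE 0.14, adjusted p = 0.00997). The 2 receptors thus changed in opposite directions, with no overlap between the groups for either. *Fzd3*, *Fzd4* and *Fzd6* also did not overlap but were not called, at 0.65, -0.26 and 0.50 (adjusted p = 0.0944, 0.0992 and 0.0895).

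*Bcl9l* read 34.0, 21.5 and 32.6 CPM in WT liver and 12, 13.4 and 11.6 CPM in null liver (log2 fold change -1.24, SE 0.19, adjusted p = 0.00495). *Ctnnb1* read 329, 324 and 324 CPM in WT and 273, 226 and 250 CPM in null, a change of -0.37 (adjusted p = 0.0573) that was called without null liver 1 (-0.46, adjusted p = 0.0357). *Tcf7* and *Lef1* were not called, at 0.49 without overlap (adjusted p = 0.0870) and 0.49 with overlap.

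Of the polarity genes, *Daam1* read 78.4, 76.4 and 73.1 CPM in WT and 48.2, 56.9 and 46.5 CPM in null liver (log2 fold change -0.58, SE 0.10, adjusted p = 0.00735). *Prickle1*, a cytoplasmic polarity protein gene, read 7.48, 6.33 and 9.47 CPM in WT and 13.7, 11.6 and 17.9 CPM in null (0.90, SE 0.22, adjusted p = 0.0236). *Vangl2*, its membrane partner, read 2.94, 1.87 and 2.68 CPM in WT and 4.13, 4.23 and 4.48 CPM in null (0.79, SE 0.23, adjusted p = 0.0423). All 3 groups of values were free of overlap, but the calls differed in strength. *Daam1* was called in 6 of 6 fits that left out 1 library, *Prickle1* in 3 and *Vangl2* in none.

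*Dkk3* read 6.77, 7.62 and 9.12 CPM in WT liver and 14.0, 9.75 and 19.8 CPM in null (log2 fold change 0.90, SE 0.27, adjusted p = 0.0428), and it was called in only 1 of 6 fits that left out 1 library. *Fzd1*, *Fzd5*, *Lgr4*, *Bcl9l* and *Rnf43* were called in 6 of 6. In the fit of all 12 libraries, which holds null lung 1, *Fzd1*, *Fzd5* and *Lgr4* lost their calls (adjusted p = 0.0558, 0.0840 and 0.287). The groups did not overlap for 19 of 44 members, against 45.7% of all genes. Without null liver 1 they did not overlap for 26 of 46, against 55.2% of the 14343 genes tested with all 6 livers. With upper-quartile factors or library totals in place of TMM, 3 members were higher and 7 lower, against 5 and 4 with TMM, and none of the 9 changed sign. Among all genes called, the share that was higher moved in the same way, from 50.1% with TMM to 35% with upper-quartile factors and 31.9% with library totals.

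No ligand passed edgeR's test in liver, where 8 were tested and 5 were too low. *Wnt4*, the leading one, read 62.1, 65.7 and 95.5 CPM in null and overlapped with WT (log2 fold change -0.21, SE 0.24). *Wnt11* read 0.638, 0.487 and 0.720 CPM in WT and 3.49, 0.996 and 1.06 CPM in null, without overlap but not called (1.61, SE 0.56, adjusted p = 0.0679), and null liver 1 was the highest. Null liver 1 was likewise the highest null liver for *Wnt9a* (4.09 against 0.854 and 1.14 CPM), *Ror1* (2.95 against 0.996 and 1.94 CPM), *Sfrp2* (4.13 against 0.640 and 0.507 CPM) and *Fzd10* (1.28 against 0 and 0.127 CPM). The summed stellate cell and fibroblast markers were 2460 CPM in that library and 717 to 944 CPM in the other 5 livers. *Col3a1* (997 CPM), *Col1a1* (569 CPM) and the muscle gene *Des* (427 CPM) made up most of that sum, while *Dcn* (279 CPM), *Pdgfrb* (16.8 CPM) and *Reln* lay within the range of the other livers. *Pdgfra* was above every other liver there, with 1053 counts against 555 to 849, and *Lrat* below, with 202 counts against 249 to 673. The summed skeletal muscle markers were 5550 CPM there against 1.78 to 3.77 CPM. The part of these cells in the values was not tested.

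Of the 80 other genes of the pathway on a list fixed by role, 65 were tested in liver and 23 were called, 15 higher and 8 lower, again beside 26.9% of all genes. They included 4 of 10 other nuclear factors, all higher: the Groucho corepressor genes *Tle1*, *Tle2*, *Tle3* and *Tle4*, of which *Tle2* lost its call without null liver 1 (adjusted p = 0.0549). *Tle1* read 115, 77.7 and 106 CPM in WT and 252, 270 and 298 CPM in null (log2 fold change 1.47, SE 0.16, adjusted p = 0.00268). The other genes with large changes were *Notum*, a Wnt deacylase (1.58, SE 0.39), the polarity cadherin *Celsr3* (1.46, SE 0.27), the atypical cadherin *Dchs1* (1.32, SE 0.15) and *Invs*, a ciliary protein gene that acts between the 2 branches (-1.25, SE 0.35). *Notum* shares 29.4% of its exon length with an antisense gene. Of 10 known beta-catenin targets tested in liver 1 was called, the pericentral cytochrome gene *Cyp1a2*, which read 5.78, 32.3 and 8.57 CPM in WT and 0.391, 2.81 and 0.338 CPM in null (-3.70, SE 0.95, adjusted p = 0.0267). The pericentral genes *Glul*, *Oat*, *Cyp2e1*, *Lect2*, *Rhbg* and *Tbx3* were not called, at log2 fold changes of 0.18, -0.54, -0.39, -0.05, -0.20 and -0.67, nor were *Tnfrsf19* (0.16), *Ccnd1* (-0.40) and *Myc* (0.46). *Sp5* was too low to test. Without null liver 1, 16 of 66 of these genes (24.2%) were called, beside 23.8% of all genes, where all 6 livers gave 35.4% beside 26.9%.

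Of the cell markers in liver, 0 of 7 hepatocyte and 0 of 5 tested cholangiocyte markers were called, beside 26.9% of all genes. Of 8 endothelial markers 2 were higher, of 8 stellate cell and fibroblast markers 1 was higher and 2 were lower, and of 5 macrophage markers 1 was higher. WT liver 2 held 991 counts of the alveolar type 2 marker *Sftpc*, against 4 to 159 in the other livers. The summed endothelial markers were 586 to 608 CPM in WT and 569 to 695 CPM in null liver. Their part in the changes of the Wnt genes was not tested.
The comparison of null with WT lung depended on the library labelled null lung 1. With all 6 libraries, 0 of 50 members were called by edgeR, beside 0.327% of all 15591 genes. At an unadjusted p under 0.05 there were 13 members, against 25.0% of all genes, and DESeq2 called 10 of 47, against 15.1% of all genes. With that library left out, edgeR called 26 of 50 members, 13 higher and 13 lower in null, against 37.0% of all genes (18.0% higher and 19.0% lower). The ligands stood on the lower side, with 7 of 12 called and all 7 lower. Of the Frizzled receptors 4 rose and 2 fell, the R-spondin receptors *Lgr4* and *Lgr5* rose, and so did the Tcf/Lef genes *Lef1* and *Tcf7* and the feedback targets *Axin2* and *Znrf3*. The planar cell polarity genes divided, with 2 higher and 2 lower. In this comparison 3 WT lungs stand against only 2 null lungs, and the changes below are from that fit unless stated otherwise. Values of null lung 1 are printed beside them for every gene, whether they lie with the other null lungs or not. In that library genotype cannot be told apart from tissue content, with summed alveolar type 1 markers of 281 CPM against 1590 to 1970 CPM in the other lungs.

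**Figure D3:**
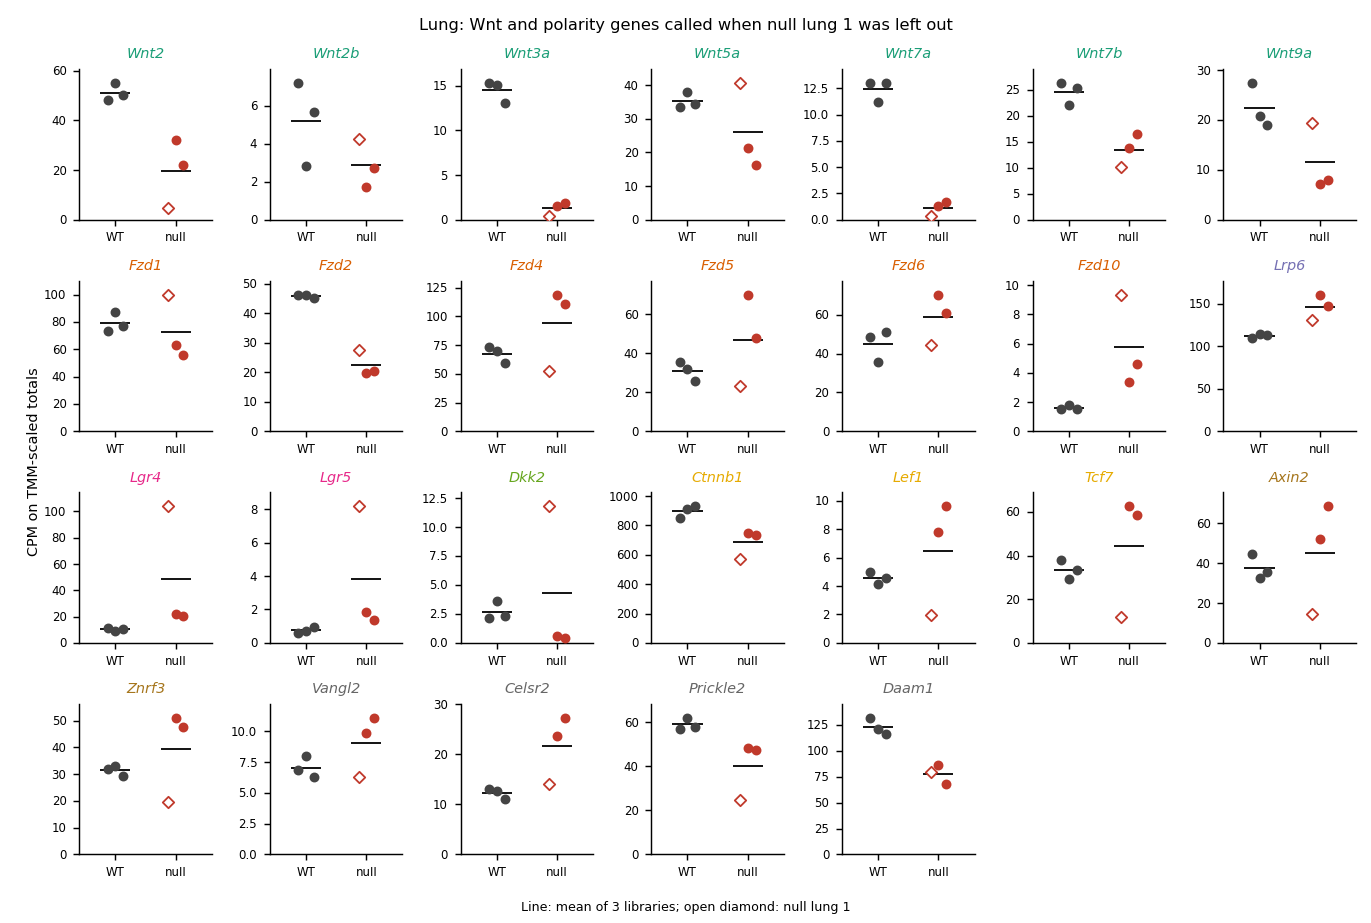
CPM on TMM-scaled totals in each WT (grey) and null (red) lung for the 26 genes called without null lung 1, with a line at the mean of 3 libraries, null lung 1 as an open diamond and panel titles coloured by role. Null lung 1 lies apart from the other 2 null lungs in most panels, as for *Lgr4* at 104 against 21.8 and 20.8 CPM, and lies below all other lungs for *Wnt3a* and *Wnt7a*.

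The canonical ligand *Wnt3a* (chr11:59248033-59290752, minus strand, 4 exon blocks) read 15.3, 15.1 and 13.1 CPM in the WT lungs and 0.472, 1.52 and 1.88 CPM in the null lungs. Its change was -3.10 on the log2 scale (SE 0.19, adjusted p = 0.000379), and -3.48 (SE 0.49, adjusted p = 0.0541) with null lung 1. *Wnt7a* (chr6:91363981-91411363, minus strand, 4 exon blocks), known from the female tract and the nervous system, followed almost the same course, with 13.0, 11.2 and 13.0 CPM in WT and 0.361, 1.32 and 1.65 CPM in null (-3.07, SE 0.20, adjusted p = 0.000386). With null lung 1 its change was -3.47 (SE 0.53, adjusted p = 0.0541). These were the largest changes among the 50 members tested without null lung 1, and for both genes null lungs 2 and 3 lay far below the lowest WT lung. Null lung 1 was lower still, but genotype and tissue content cannot be told apart in that library. The stretches upstream of both, printed above, hold GC boxes, which were found for 28 of the 35 members with a window.

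*Wnt2*, a mesenchymal ligand and the leading one of WT lung per kilobase, read 48.2, 55.0 and 50.0 CPM in WT and 4.55, 32.2 and 22 CPM in null (log2 fold change -0.93, SE 0.17, adjusted p = 0.00588). *Wnt5a*, which acts chiefly without beta-catenin, read 33.6, 37.8 and 34.3 CPM in WT and 21.3 and 16.4 CPM in null lungs 2 and 3 (-0.92, SE 0.14, adjusted p = 0.00323). Null lung 1 stood above every WT lung for *Wnt5a*, at 40.6 CPM, so that the groups overlap once it is counted. *Wnt7b*, an epithelial ligand of the airway tips, read 26.3, 22 and 25.3 CPM in WT and 10.2, 13.8 and 16.4 CPM in null (-0.72, SE 0.14, adjusted p = 0.00686). Here the groups did not overlap with or without null lung 1. *Wnt7b* and *Wnt5a* share 6.61% and 4.58% of their exon length with antisense genes.

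*Wnt9a* (chr11:59306928-59333552, plus strand), which lies beside *Wnt3a* on the opposite strand, read 27.4, 20.8 and 19.0 CPM in WT lung and 19.4, 7.19 and 7.96 CPM in null (log2 fold change -1.58, SE 0.19, adjusted p = 0.00142). *Wnt2b*, which is known from the lung field of the early foregut, read 7.20, 2.82 and 5.65 CPM in WT and 4.27, 1.71 and 2.71 CPM in null (-1.26, SE 0.40, adjusted p = 0.0440). The highest null value used in that fit, 2.71 CPM, is just under the lowest WT value. The 5 other ligands tested were not called, at log2 fold changes of -0.05 (*Wnt11*), -0.11 (*Wnt3* and *Wnt4*), -0.14 (*Wnt5b*) and -0.15 (*Wnt9b*). All 12 fitted changes were thus below 0, with a median of -0.82 against -0.01 over all genes. With null lung 1 the median was -0.61 and 9 of 12 were below 0.

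*Fzd2* (chr11:102604396-102608058, plus strand, 1 exon), a receptor for several ligands that act without beta-catenin, read 46.3, 46.3 and 45.0 CPM in WT lung and 27.5, 19.7 and 20.5 CPM in null. Its change was -1.21 (SE 0.10, adjusted p = 0.000599), and no null lung reached the WT range, null lung 1 included. *Fzd1* read 73.2, 87.5 and 77.0 CPM in WT and 100, 63.2 and 55.5 CPM in null (-0.43, SE 0.12, adjusted p = 0.0259), with null lung 1 above every WT lung. *Fzd4*, also the receptor for Norrin in vessels, read 73.4, 69.8 and 59.4 CPM in WT and 52.4, 119 and 111 CPM in null (0.75, SE 0.11, adjusted p = 0.00291). *Fzd5* read 35.8, 31.9 and 25.8 CPM in WT and 23.3, 70.2 and 47.8 CPM in null (0.91, SE 0.19, adjusted p = 0.00997). For *Fzd4* and *Fzd5* null lungs 2 and 3 lay above every WT lung and null lung 1 below. *Fzd6*, a polarity receptor, read 48.3, 35.7 and 51.2 CPM in WT and 44.6, 70.3 and 61.0 CPM in null (0.53, SE 0.16, adjusted p = 0.0356). *Fzd10* was low throughout, at 1.5, 1.78 and 1.52 CPM in WT and 9.35, 3.39 and 4.57 CPM in null (1.30, SE 0.23, adjusted p = 0.00503), and here every null lung was above every WT lung. *Fzd3*, *Fzd7* and *Fzd8* were not called, at 0.32, 0.02 and -0.17.

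Among the co-receptors only *Lrp6* was called, with 110, 115 and 113 CPM in WT lung and 131, 161 and 148 CPM in null (log2 fold change 0.44, SE 0.09, adjusted p = 0.00990), with no overlap in the 6 lungs. *Ror2* came near at 22.7, 18.9 and 20.3 CPM against 26.4, 26.2 and 26.9 CPM (0.35, SE 0.12, adjusted p = 0.0526). *Lrp5*, *Ror1* and *Ryk* were at 0.20, 0.26 and 0.23 and were not called.

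*Lgr4* read 11.6, 8.91 and 10.4 CPM in WT lung and 104, 21.8 and 20.8 CPM in null (log2 fold change 1.03, SE 0.15, adjusted p = 0.00240). *Lgr5*, a stem cell marker of several epithelia, read 0.596, 0.718 and 0.941 CPM in WT and 8.18, 1.83 and 1.38 CPM in null (1.08, SE 0.30, adjusted p = 0.0273). Every null lung lay above every WT lung for both receptors, and null lung 1 was several times higher than the rest. *Rspo3* read 0.542, 0.239 and 0.336 CPM in WT and 10.2, 0.833 and 0.853 CPM in null, without overlap but not called (1.13, adjusted p = 0.0520), whereas *Rspo1* and *Lgr6* were at -0.19 and -0.35 and were not called.

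Of the secreted inhibitors *Dkk2* alone was called, with 2.11, 3.62 and 2.29 CPM in WT lung and 11.8, 0.630 and 0.379 CPM in null (log2 fold change -2.41, SE 0.38, adjusted p = 0.00331). Null lungs 2 and 3 were below every WT lung and null lung 1 was far above them, and with null lung 1 in the fit the sign turned (0.74, SE 1.27). *Dkk3*, *Sfrp1* and *Sfrp2* were not called, at 0.11, -0.42 and -0.57. *Dkk3* was highest in null lung 1 too, at 348 CPM against 97.2 to 128 CPM in the other 5 lungs.

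*Tcf7* read 37.8, 29.3 and 33.4 CPM in WT lung and 11.9, 62.6 and 58.7 CPM in null (log2 fold change 0.84, SE 0.12, adjusted p = 0.00270). *Lef1*, its relative, read 4.98, 4.12 and 4.55 CPM in WT and 1.94, 7.78 and 9.63 CPM in null (0.92, SE 0.18, adjusted p = 0.00739). Both were above every WT lung in null lungs 2 and 3 and below every WT lung in null lung 1. *Ctnnb1* read 849, 910 and 931 CPM in WT and 568, 749 and 738 CPM in null, a small decrease with no overlap (-0.28, SE 0.10, adjusted p = 0.0495). *Lef1* and *Ctnnb1* share 13.8% and 14.6% of their exon length with antisense genes. *Bcl9l* read 69.2, 62.6 and 66.7 CPM in WT and 43.8, 61.8 and 62.3 CPM in null and was not called (-0.11, adjusted p = 0.404).

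The feedback target *Axin2* read 44.4, 32.7 and 35.4 CPM in WT lung and 14.7, 52 and 68.6 CPM in null (log2 fold change 0.67, SE 0.17, adjusted p = 0.0180). *Znrf3* read 31.9, 33.2 and 29.3 CPM in WT and 19.6, 51.1 and 47.5 CPM in null (0.63, SE 0.11, adjusted p = 0.00422). Null lungs 2 and 3 exceeded every WT lung for both. *Rnf43*, at 8.40, 8.54 and 10 CPM against 3.80, 11 and 11.4 CPM, was not called (0.30, adjusted p = 0.161), and *Nkd1* was at -0.09.

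Of the polarity genes, *Celsr2* read 13.1, 12.6 and 11 CPM in WT lung and 14.1, 23.7 and 27.3 CPM in null (log2 fold change 1.04, SE 0.13, adjusted p = 0.00175), and every null lung was above every WT lung. *Vangl2* read 6.83, 7.98 and 6.32 CPM in WT and 6.32, 9.84 and 11.1 CPM in null (0.56, SE 0.17, adjusted p = 0.0349). *Daam1* read 132, 121 and 116 CPM in WT and 80.0, 86.4 and 67.9 CPM in null (-0.69, SE 0.13, adjusted p = 0.00628), with all 3 null lungs below WT. *Prickle2* read 57.2, 62.1 and 58.0 CPM in WT and 24.9, 48.5 and 47.6 CPM in null (-0.31, SE 0.10, adjusted p = 0.0394). *Celsr1*, *Prickle1* and *Scrib* were not called, at 0.15, 0.21 and -0.28.

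Over all members tested, the groups did not overlap for 37 of 50 without null lung 1, against 62.0% of all genes, and for 19 of 50 with it, against 35.7%. The median log2 fold change without null lung 1 was -0.07, beside -0.01 over all genes. With null lung 1 left out and library totals in place of TMM, which moved the median of all genes to -0.16, 11 members were called higher and 15 lower. With GC and length correction in the same libraries 16 were called higher and 10 lower. Calls were lost for *Ctnnb1* by DESeq2, for *Fzd6* and *Vangl2* with library totals and for *Wnt2b*, *Fzd1* and *Ctnnb1* with GC and length correction.

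**Figure D4:**
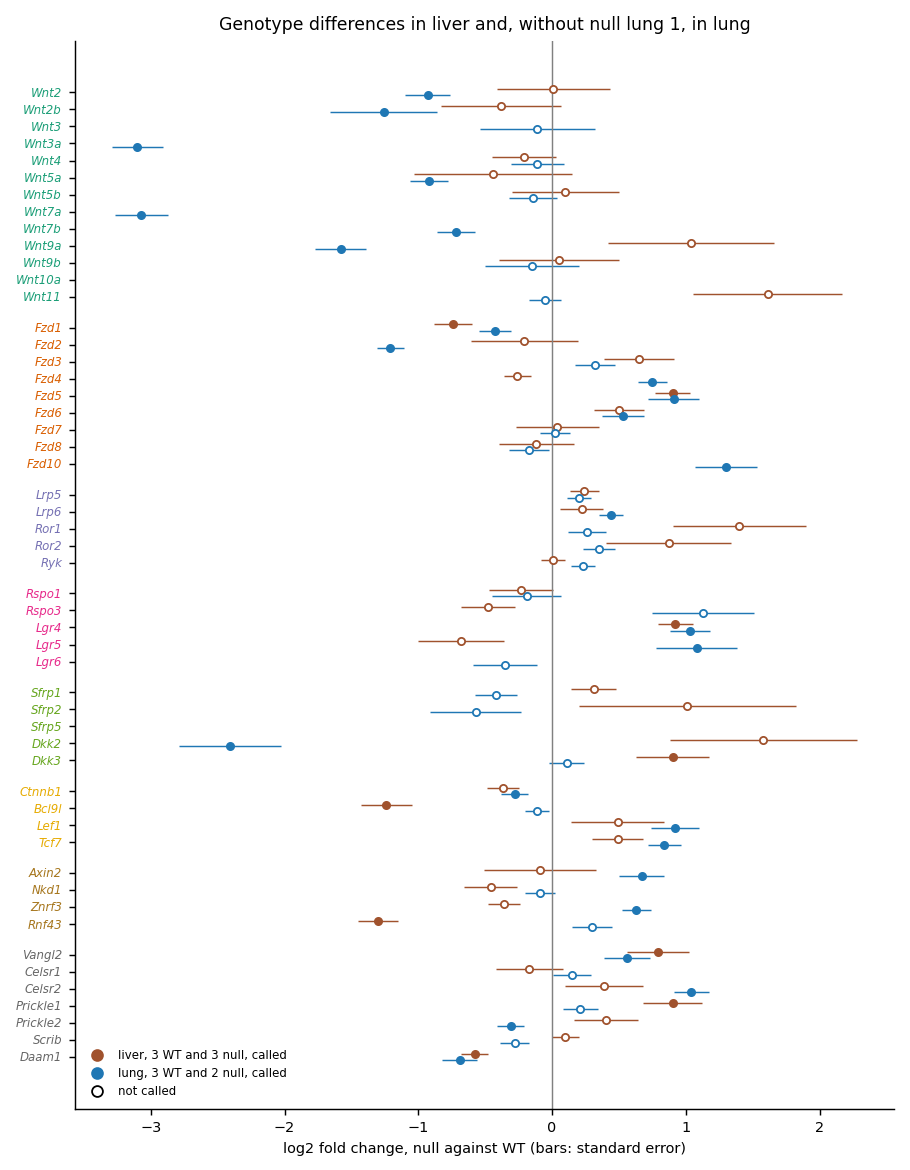
Log2 fold change (null against WT) with its SE for each gene tested, in liver (brown, 3 WT against 3 null) and in lung without null lung 1 (blue, 3 WT against 2 null), grouped by role. Filled points were called, and the blue points of all tested Wnt ligands lie left of 0, with *Wnt3a* at -3.10 and *Wnt7a* at -3.07.

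Of the 80 other pathway genes, 71 were tested in lung, and edgeR called 0 with null lung 1 and 25 without it, 17 higher and 8 lower, beside the 0.327% and 37.0% of all genes given above. At an unadjusted p under 0.05 there were 18 with null lung 1, beside the 25.0% of all genes, and DESeq2 called 9 of 76 (11.8%), beside the 15.1%. The R-spondin gene *Rspo2* was lower, with 3.14, 3.03 and 4.23 CPM in WT and 2.64, 1.06 and 0.455 CPM in null (log2 fold change -2.22, SE 0.38, adjusted p = 0.00467). The ligand gene *Wnt10b* (-2.02, SE 0.46) and *Kremen2*, a co-receptor of the Dkk inhibitors (-1.88, SE 0.49), were lower too, both from levels below 1 CPM in WT. The receptor gene *Fzd9* (1.58, SE 0.35) and the polarity cadherin *Celsr3* (1.57, SE 0.33) rose, and *Invs* fell (-1.51, SE 0.32). Of 9 genes tested from the list of known beta-catenin targets of liver and other tissues, 5 were called, in both directions. *Glul*, which encodes glutamine synthetase, read 442, 349 and 434 CPM in WT and 414, 1040 and 1290 CPM in null (1.5, SE 0.14, adjusted p = 0.000732), *Sp5* and *Tbx3* rose by 0.62 and 0.42, and *Ccnd1*, which encodes cyclin D1, and *Tnfrsf19* changed by -1.10 and -0.77. *Myc*, *Oat*, *Rhbg* and *Cyp2e1* were not called, at 0.20, 0.01, -0.01 and 0.75, and *Lect2* and *Cyp1a2* were too low to test.

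Cell markers were called between genotypes in lung as well, beside the 37.0% of all genes called without null lung 1. Without null lung 1, 3 of 5 alveolar type 1 markers were lower in null, namely *Rtkn2* (-1.44), *Pdpn* (-1.25) and *Hopx* (-0.71), while the summed level of the list was 1910 to 1970 CPM in WT and 1930 and 1590 CPM in null. Of 4 smooth muscle markers 3 were lower, with a sum of 490 to 516 CPM in WT and 305 and 292 CPM in null. Of 5 heart markers 4 were higher, with a sum of 123 to 189 CPM in WT and 389 and 293 CPM in null, and 2 of 4 skeletal muscle markers were higher. Of 7 endothelial markers 2 were higher and 2 lower, of 8 fibroblast markers 2 were higher and 1 lower, and of 5 alveolar type 2 markers 1 was higher, with a sum of 17200 to 20700 CPM in WT and 23900 and 17900 CPM in null. Of 5 macrophage markers 2 were higher, of 3 airway markers 1 was higher, of 4 mesothelial markers 1 was lower, and 0 of 7 hepatocyte markers were called. Of 6 cholangiocyte markers 1 was higher and 2 were lower, and 0 of 3 erythroid markers tested were called. In null lung 1 itself the heart sum was 13200 CPM, the skeletal muscle sum 6910 CPM and the fibroblast sum 9230 CPM against 1600 to 1990 CPM in the other lungs. The part of these markers in the changes of the Wnt genes was not tested.

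Whether the genotype effect differed between the tissues was tested as lung minus liver in a single fit. With all 12 libraries 0 of 50 members were called by edgeR, beside 0.371% of all 16155 genes, with 10 members and 13.9% of all genes at an unadjusted p under 0.05 and 2 members called by DESeq2, against 3.94% of all genes. Without null lung 1, 6 were called, 5 of them higher and 1 lower in lung relative to liver, against 5.0% of all genes (2.29% and 2.71%). *Rnf43* had the smallest adjusted p, with a decrease in liver (-1.30) and a lung change of 0.30, a difference of 1.62 (SE 0.20, adjusted p = 0.00302). Its partner *Znrf3* was at -0.36 in liver and 0.63 in lung (difference 1.01, SE 0.15, adjusted p = 0.00813). The receptor gene *Fzd4* was at -0.26 in liver and 0.75 in lung (1.03, SE 0.15, adjusted p = 0.00827).

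*Bcl9l* fell in liver, at -1.24, and was not called in lung, at -0.11 (difference 1.15, SE 0.22, adjusted p = 0.0199). *Rspo3* was at -0.48 in liver and 1.13 in lung, neither of them called, with a difference of 1.62 (SE 0.41, adjusted p = 0.0473). *Dkk2* went the other way, at 1.58 in liver, where it read 0.780, 0.365 and 0.103 CPM in WT and 1.81, 0.534 and 1.35 CPM in null, and -2.41 in lung (difference -3.96, SE 0.92, adjusted p = 0.0376). Its liver change was not called, the groups overlapped, and the WT livers held only 22, 9 and 3 counts, near the floor. In contrast, *Lgr4*, at 0.92 in liver and 1.03 in lung, and *Fzd5*, at 0.90 and 0.91, had differences of 0.14 (SE 0.19) and 0.03 (SE 0.26). *Daam1* was called lower in both tissues without null lung 1 in the lung fit. *Vangl2* was called higher and *Fzd1* lower there too, but *Vangl2* lost its call in liver without null liver 1 and in lung with library totals, and *Fzd1* in lung with GC and length correction and in liver in the fit of all 12 libraries. With the animal as a block and null lung 1 left out, 7 members were called, 5 higher and 2 lower in lung relative to liver, against 5.77% of all genes (2.55% and 3.22%). *Rspo3* was lost (adjusted p = 0.0589), and *Wnt2* (-1.32, adjusted p = 0.0323) and *Lgr5* (2.03, adjusted p = 0.0284) were gained. With null lung 1 and null liver 1 both left out and no block it was 9 members, 6 higher and 3 lower, against 5.18% of all genes (2.25% and 2.93%), the 6 named above together with *Wnt2*, *Wnt9a* and *Lgr5*.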

How the data were processed

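Total RNA of newborn mouse liver and lung was made into stranded polyadenylated mRNA libraries and sequenced in pairs of 75 bp. Per the labels, the authors checked reads with FastQC, aligned them to mm10 with STAR 2.5.2a and used DESeq2, and they deposited unnormalised read counts per gene for each library. The counting program, annotation and strand setting were not given in the sources used here. Besides the members for which it is stated above, antisense genes share exon length with *Wnt11* (8.8%), *Bcl9l* (8.28% and 1.38%), *Axin2* (3.8%) and *Fzd6* (3.15%). Of 24421 rows, 27 have a date in place of a gene symbol, and none of the 52 members is missing for it. The 52 members, the list of 80 other pathway genes and the cell markers were chosen with earlier results of these data known.

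From the counts, edgeR 4.0.16 (R 4.3.3) was used with its default filter on low counts, TMM factors and the quasi-likelihood test, and p-values were adjusted over all genes tested by the Benjamini-Hochberg method. A call required an adjusted p under 0.05 and at least 1.2-fold, or, for the difference between tissues, no minimum fold. Genotypes were fitted within each tissue, the tissues within WT, and the difference between tissues over all 12 libraries. The standard error of a log2 fold change was derived as its absolute value divided by the square root of edgeR's quasi-likelihood F statistic. The fits were tested on simulated data. Exon length and position came from GENCODE M21 on the same build, and RefSeq windows gave the upstream sequences. Full values were given for members called between genotypes or for the difference between tissues, and for the 3 members of each role with the largest tissue difference. Of the other pathway list, the 6 largest calls in each genotype comparison and the known targets were named. The 4 *Tle* genes, and *Rspo2* and *Rspo4* between the tissues, were named after their values were seen. Replicates are separate animals.

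Libraries held 26759463 to 42914295 counts, and the 3-count floor covers counting error only. Deviations from the group mean correlated between liver and lung of the same number at 0.20, 0.19 and 0.14 in WT and 0.45, 0.36 and 0.38 in null, and numbers were taken to mark the animal there. With 3 libraries per group these correlations are not independent, and null liver 1 and null lung 1 both held skeletal muscle RNA. The correlations therefore cannot show by themselves that numbers mark animals. Between WT and null the numbers mark different animals. Alternatives changed the scaling, filter, test, block, GC and length correction and libraries used. Those that leave out null lung 1 together with another change were chosen after seeing the data.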

Additional observations from a re-analysis of the deposited data

Results flagged for a closer look

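Each value here is a difference between the genotype effect in lung and that in liver (lung minus liver, log2 scale) with an adjusted p under 0.05 by edgeR in a fit that left out null lung 1. With all 12 libraries no member was called. The fit with the block and the fit without either doubted library were chosen after seeing the data.

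Without null lung 1, *Rnf43* (1.62), *Rspo3* (1.62), *Bcl9l* (1.15), *Fzd4* (1.03) and *Znrf3* (1.01) were relatively higher in null lung and *Dkk2* (-3.96) was relatively lower. With the animal as a block as well, the differences were 2.03 for *Lgr5*, 1.69 for *Rnf43*, 1.13 for *Bcl9l*, 1.02 for *Fzd4*, 0.98 for *Znrf3*, -1.32 for *Wnt2* and -3.53 for *Dkk2*. With null lung 1 and null liver 1 both left out and no block, they were 1.99 for *Lgr5*, 1.68 for *Rnf43*, 1.41 for *Rspo3*, 1.13 for *Bcl9l*, 1 for *Fzd4*, 0.97 for *Znrf3*, -1.31 for *Wnt2*, -1.54 for *Wnt9a* and -3.55 for *Dkk2*. *Rnf43*, *Bcl9l*, *Fzd4*, *Znrf3* and *Dkk2* were called in all 3 of these fits.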

How the results depend on the processing

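The lung and tissue-difference results rest on leaving out null lung 1. With it, 0 members were called in lung, and leaving out 1 library at a time gave 0 to 26 members and 0 to 25 other pathway genes, the highest without null lung 1 and 0 without any other library. Lung results without it rest on 2 null animals. Depth limits *Wnt10a*, *Sfrp5* and the ligands near the floor in liver.

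In lung with all 6 libraries, upper-quartile factors gave 1 member (*Wnt3a*), library totals 2 and a minimum of 10 counts 2 (*Wnt3a* and *Wnt7a*), DESeq2 10 and the fit of all 12 libraries 6 (*Wnt3a*, *Wnt7a*, *Rspo3*, *Lgr4*, *Lgr5* and *Daam1*). DESeq2 and the fit of all 12 libraries each gave 9 other pathway genes. Without null lung 1, 26 members were called by DESeq2, 26 with library totals and 26 with GC and length correction, of which 25, 24 and 23 were among the 26 called by edgeR. Other pathway genes numbered 28, 24 and 27 there. In liver the fit of all 12 libraries gave 4 members (*Bcl9l*, *Rnf43*, *Prickle1* and *Daam1*), and leaving out 1 library gave 6 to 10 members and 8 to 20 other pathway genes, the latter falling to 13, 11 and 8 without WT liver 1, 2 and 3. For the tissue difference DESeq2 gave 2 members (*Bcl9l* and *Lgr5*) and 5 other pathway genes, GC and length correction 1 member (*Bcl9l*), leaving out 1 library 0 to 6 members and 0 to 3 other pathway genes, leaving out null lung 1 and null liver 1 together 9 and 2, and the block without null lung 1 7 and 5. For the tissues in WT, leaving out 1 library gave 48 members in every case and 57 to 61 other pathway genes.

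The sign turned for *Fzd1* in lung, from -0.09 with all libraries to 0.02 with GC and length correction, 0.01 without null lung 2 and 0.08 without null lung 3 (range -0.43 to 0.08 leaving out 1 library), for *Axin2*, from 0.26 to -0.15 without null lung 3 (range -0.15 to 0.67), and for *Dkk2*, from 0.74 to -1.13 with the replicate block, -1.07 with the block and GC and length correction, -2.41 without null lung 1 (range -2.41 to 1.27), and -2.39, -2.57 and -2.35 without it by DESeq2, library totals and GC and length correction. Between the WT tissues it turned for *Lrp5* and *Rnf43* with library totals (0.35 and 0.30) and for *Scrib* with GC and length correction, without and with the block (-0.27 in each). With null libraries in place of WT it turned for *Lgr5* (1.42), *Rnf43* (0.79) and *Scrib* (-0.02), and without null lung 1 among them for *Lgr5* (0.16), *Dkk2* (-1.31) and *Rnf43* (1.14). The cause was not tested for any of these.

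The replicate number pairs different animals between genotypes, with correlations of -0.04, -0.04 and 0.13 in liver and -0.04, -0.08 and 0.11 in lung. As a block it gave 8 members and 18 other pathway genes in liver, 0 and 0 in lung, 48 and 59 between the WT tissues and 0 and 0 for the tissue difference, and with GC and length correction 8 and 18, 0 and 0, 49 and 58, and 0 and 0. Of all values recomputed, 138 counts stayed within 1.5 times and 28 did not, and of values of single members, over all comparisons, 1600 kept direction and call, 133 gained a call, 48 lost it and 20 changed sign.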
